A study of Mus musculus with 6 samples.

Results

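The numbered Zfp genes are the mouse genes whose symbol is Zfp followed only by digits, such as Zfp703 or Zfp445, and they are taken here without Zfp36. By that rule 288 of the 11417 genes in the deposited expression table were members. They were measured by poly(A) RNA sequencing in BC44, HC11 and C57MG, 3 established cell lines labelled as mouse mammary epithelium, with 2 replicate libraries per line and 6 in all. All cells were untreated and grown on plastic in 10 cm dishes, and were harvested 2 days after plating. BC44 grew in RPMI1640 with 10% serum and 5 µg/ml insulin, HC11 in RPMI1640 with 10% serum, 5 µg/ml insulin and 10 ng/ml EGF, and C57MG in DMEM with 10 µg/ml insulin and 10% serum. Line and medium cannot be told apart, because each line had its own medium. Nothing in the labels says that the replicates came from separate cultures, so p-values measure the spread between these libraries, which may be technical.

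Zfp is a naming series rather than 1 protein family. Most of its genes encode C2H2 zinc finger proteins, in which small zinc-bound folds stand in a row and each reads a few bases of DNA. Many also carry a KRAB box at the N-terminus, which binds the corepressor KAP1 (Trim28). KAP1 in turn brings the histone methyltransferase Setdb1 and HP1 proteins, which set up silent chromatin, above all on transposable elements. KRAB zinc finger genes multiplied by local duplication and lie in clusters. A second, older part of the series holds transcription factors and chromatin proteins of development, and a few members were given the name for another kind of zinc-binding fold. In the translated coding sequence of the annotation (GENCODE M21), 278 members matched the C2H2 finger pattern at least once, with a median of 10 fingers over all members and a largest number of 36. A KRAB box pattern was found in 160 members and a SCAN domain pattern in 8. The 10 members without a finger match included Zfp185, a LIM domain protein, and the related corepressors Zfp503 and Zfp703.

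The labels call all 3 lines mammary epithelial, and the markers of C57MG went against that. Summed over 12 epithelial markers, the level was 4940 to 5142 RPKM (a read count corrected for gene length and library depth) in BC44, 2463 to 3352 in HC11, and 138 and 65.8 in the C57MG libraries. Epcam, an epithelial surface protein, was at 118 and 92.1 RPKM in BC44, 242 and 163 in HC11, with 0.949 and 0 in C57MG. Of the 12 epithelial markers, 2 and 6 were listed at 0 in the C57MG libraries, 2 in each BC44 library and 0 in HC11. At least 1 RPKM was reached by 3 and 1 in C57MG, by 9 in each BC44 library and by 12 in HC11. Summed over 12 mesenchymal markers, C57MG stood at 7472 and 7677 RPKM, against 257 to 393 in the other 4 libraries. Immune markers, of which 2 of 8 were in the table, summed to at most 21.9 RPKM in C57MG and to 1.52 to 3.00 elsewhere. Every difference of a Zfp gene between C57MG and another line therefore goes with this change of markers, and its part in those differences was not tested. Estimated depth was 14250000 to 18460000 reads per library, at which a gene of 2 kb with 3 reads has 0.0813 to 0.105 RPKM.

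A low signal of one line in another was also seen. Among genes high in C57MG and near 0 in HC11 and in the other BC44 library, the median level in BC44 was 0.666% of that in C57MG in replicate 1 (73 genes) and 2.02% in replicate 2 (72 genes). Genes high in BC44 only stood at 0.729% in C57MG replicate 1 and 0% in replicate 2 (11 genes each), and in HC11 such genes stood at 2.38% and 1.21% (18 genes each). The other pairs of lines gave 0.0105% to 0.35%. In bulk RNA, a few cells of another line, or of another state, cannot be told apart from a low level in every cell. The limits that chose these genes were set after the data were seen.

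The numbered Zfp genes were weakly expressed as a group. Their median levels in BC44, HC11 and C57MG were 3.37, 2.94 and 3.31 RPKM, where all genes had medians of 9.17, 9.21 and 9.23. Between 226 and 241 of the 288 members (78.5% to 83.7%) reached 1 RPKM in a given library. A level of 10 RPKM was reached in BC44 by 48 members, in HC11 by 44, while C57MG had 35 (16.7%, 15.3% and 12.2%, against 47.6% to 47.9% of all genes). Summed over members, the level was 1816 and 1852 RPKM in the BC44 libraries, 1557 and 1614 in HC11, and 1459 and 1524 in C57MG. The 3 lines did not overlap in this sum, and BC44 was the highest. As a share of a library's total RPKM, the sum ranged from 0.452% to 0.557%. BC44 was again the highest by this share, with 0.554% in replicate 1 and 0.557% in replicate 2. The HC11 shares (0.455% and 0.466%) lay between those of C57MG (0.452% and 0.478%). HC11 and C57MG were therefore separate in the sum but not in the share.

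Most members were detected in every line, as were most other genes. At least 0.5 RPKM in all 6 libraries was found for 232 members (80.6%, against 80.1% of all genes). The lines also differed less in these genes than in others. The range over the 3 line means of log2(RPKM + 1) had a median of 0.58 for members and 0.75 for all genes. It stayed within 1, a 2-fold range, for 219 members (76.0%, against 63.5% of all genes), and reached 2 for 12 members (4.17%, against 14.0%). The pseudocount of 1 compresses differences of weakly expressed genes, and more of the members than of other genes were weakly expressed. Of the 288 members, 122 (42.4%) were highest in BC44, 117 (40.6%) in C57MG and 49 (17.0%) in HC11, where all genes divided into 33.5%, 38.3% and 28.1%. The median absolute log2 difference between replicates was 0.093, 0.132 and 0.106 in BC44, HC11 and C57MG for the members tested, and 0.116, 0.135 and 0.083 for all genes tested.

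Differences between lines were tested with limma on log2(RPKM + 1) over the 10759 genes with at least 1 RPKM in at least 2 libraries, with Benjamini-Hochberg adjustment over those genes and a threshold of 0.05. Of the members 257 entered this test and 31 did not. A weakly expressed member that entered only through the line in which it was high had to differ, so the counts below describe the members tested and not the whole series. BC44 against HC11 called 100 members (38.9%, where 47.7% of all genes were called). Of these 69 were higher in BC44 and 31 in HC11, against 24.7% and 23.0% of all genes. BC44 against C57MG called 170 members (66.1%, against 71.7% of all genes), 100 higher in BC44 and 70 in C57MG (37.5% and 34.1% of all genes). HC11 against C57MG called 156 (60.7%, against 70.5%), 78 in each direction (37.4% of all genes were higher in HC11 and 33.2% in C57MG). A difference of at least 2-fold was also required for a stricter count. By that count 9 members differed between BC44 and HC11 (12.5% of all genes), 47 between BC44 and C57MG (29.8% of all genes) and 47 between HC11 and C57MG (27.0% of all genes).

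The shares were also read by expression level, since members were weaker than other genes. For members with a mean of at least 5 RPKM, 51 of 108 (47.2%) were called between BC44 and HC11, near the 48.0% of all genes at that level. At that level 71 of 108 (65.7%) were called between BC44 and C57MG and 70 (64.8%) between HC11 and C57MG, against 71.5% and 70.3% of all genes. Under 5 RPKM the members called were 49 of 149 (32.9%), 99 (66.4%) and 86 (57.7%), where all genes gave 46.8%, 72.3% and 71.2%. In all 3 comparisons 47 members were called (18.3%, against 26.8% of all genes), and in none 48 (18.7%, against 14.0%). The counts depended on single libraries. Without BC44 replicate 1, 62 members were called between BC44 and HC11 (24.2%, against 34.1% of all genes), and without C57MG replicate 2, 102 were called between HC11 and C57MG (42.1%, against 56.7%).

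**Figure D1:**
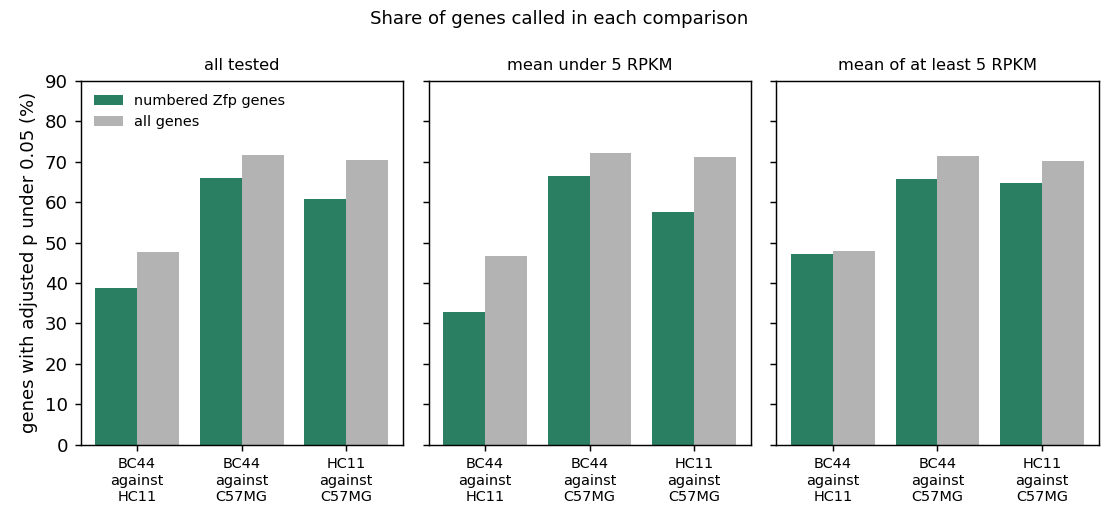
Share of genes with adjusted p under 0.05 (%, vertical axis) in each comparison of lines, for numbered Zfp genes (green) and all genes tested (grey); panels give all tested genes, those whose mean was under 5 RPKM and those at or above it. Bars are counts over genes and have no error bar; the gap between green and grey is narrowest for BC44 against HC11 at 5 RPKM or more (47.2% and 48.0%).

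A member was taken as present in 1 line only if both libraries of that line had at least 0.5 RPKM and each of the other 4 was under 0.1 RPKM. Only 3 of the 288 members met this: Zfp182 and Zfp600 in C57MG and Zfp521 in HC11, with none in BC44. Over all genes the numbers were 114 (0.999%) for C57MG, 86 (0.753%) for HC11 and 42 (0.368%) for BC44, so the shares of members (0.694%, 0.347% and 0%) were no higher. These members were chosen by their values, which are given as a description with no test.

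Zfp182, a KRAB gene on chromosome X with 14 finger matches, was listed at 0.859 and 1.29 RPKM in C57MG, an estimated 89 and 114 reads. It was at 0.012 and 0 in BC44 (an estimated 1 and 0 reads) and at 0 in both HC11 libraries. Zfp600, a KRAB gene on chromosome 4 with 17 finger matches, was at 0.908 and 0.828 RPKM in C57MG. In the other 4 libraries it stood at 0.011 to 0.023 RPKM, an estimated 1 or 2 reads each. Zfp600 belongs to a group of near-identical neighbouring genes, and how reads were divided among such copies is not given in the sources used here. Neither gene reached 1 RPKM in both C57MG libraries, so none would be counted for C57MG with that limit. Zfp521 encodes a cofactor of blood and neural progenitors with 27 finger matches, and no KRAB match. It was at 1.43 and 1.18 RPKM in HC11 (an estimated 185 and 118 reads), 0.089 and 0.075 in BC44 (9 reads each) and 0 in both C57MG libraries. Its BC44 reads lie above the 3 reads taken as the floor, so at an upper limit of 0.05 RPKM it would not count as present in HC11 only. Just outside a 10-fold limit, Zfp185 in BC44 was 9.46 times the highest library of the other lines and Zfp820 in C57MG 8.35 times.

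The reverse pattern was found for 7 members, by limits applied after the values were seen. Under 0.1 RPKM in both libraries of 1 line and at least 0.5 in the other 4 were Zfp28, Zfp449, Zfp658 and Zfp764 for BC44 (4 members, 1.39%, against 0.368% of all genes) and Zfp37, Zfp791 and Zfp941 for C57MG (3 members, 1.04%, against 2.60% of all genes). No member was missing in HC11 alone. Zfp37, known from male germ cells, was at 0.611 and 0.652 RPKM in BC44 and 1.02 and 1.11 in HC11, and was listed at 0 in both C57MG libraries. Zfp941 was at 1.20 and 0.583 in BC44 and 1.29 and 1.39 in HC11, and was likewise listed at 0 in C57MG. Listed at 0 in both C57MG libraries were 6 members (2.08%, equal to the share of all genes): Zfp2, Zfp37, Zfp459, Zfp521, Zfp810 and Zfp941. For these a count of 0 allows up to 3 reads per library. Zfp810 stood at 1.25 and 0.973 RPKM in BC44 and at 0.349 and 0.280 in HC11, and Zfp459 at 0.483 to 0.577 in both lines. C57MG replicate 2 had the most genes at 0 overall (622 of 11417, against 113 to 273 in the other 5 libraries).

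Promoters of some members present only in C57MG or listed at 0 there are shown to set their CG content side by side. Each is the 250 bases before the transcription start from RefSeq (GRCm38.p6, not the authors' build), 5′ to 3′ on the gene's strand, with CG dinucleotides in capitals. Zfp600 (C57MG only, chr4:146156577-146156826, plus strand) held 2 CG. The other 3 were listed at 0 in C57MG: Zfp941 (chr7:140822179-140822428, minus strand) held 4 CG, Zfp810 (chr9:22307639-22307888, minus strand) 15, and Zfp37 (chr4:62208547-62208796, minus strand) 23. RefSeq gives 2 starts for Zfp600 and for Zfp37, of which 1 is shown.
Zfp600: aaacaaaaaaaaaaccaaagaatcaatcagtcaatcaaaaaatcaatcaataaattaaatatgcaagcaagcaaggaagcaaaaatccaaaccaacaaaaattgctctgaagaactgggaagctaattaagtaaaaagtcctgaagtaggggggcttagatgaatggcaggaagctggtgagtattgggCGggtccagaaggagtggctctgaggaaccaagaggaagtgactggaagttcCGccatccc
Zfp941: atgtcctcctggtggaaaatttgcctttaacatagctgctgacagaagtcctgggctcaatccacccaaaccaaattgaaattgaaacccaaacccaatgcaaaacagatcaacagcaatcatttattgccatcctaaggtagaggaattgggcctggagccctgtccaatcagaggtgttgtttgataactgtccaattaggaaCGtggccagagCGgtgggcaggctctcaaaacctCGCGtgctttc
Zfp810: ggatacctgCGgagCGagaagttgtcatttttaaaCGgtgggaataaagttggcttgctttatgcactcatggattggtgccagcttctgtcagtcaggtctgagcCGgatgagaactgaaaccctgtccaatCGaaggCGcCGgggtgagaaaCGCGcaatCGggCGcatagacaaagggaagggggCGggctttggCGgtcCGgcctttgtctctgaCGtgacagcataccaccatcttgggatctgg
Zfp37: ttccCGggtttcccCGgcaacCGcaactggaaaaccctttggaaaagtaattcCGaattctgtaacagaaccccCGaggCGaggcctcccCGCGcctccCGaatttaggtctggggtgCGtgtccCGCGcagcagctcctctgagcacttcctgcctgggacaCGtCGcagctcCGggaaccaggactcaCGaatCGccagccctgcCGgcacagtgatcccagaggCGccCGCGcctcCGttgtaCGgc
Of the 6 members listed at 0 in C57MG 5 had a promoter entry, with a median of 8 CG, and 2 of them (40.0%) reached 10. Zfp2 and Zfp459, not shown, held 8 CG each. CG reads the same on both strands and was counted once per position. Of the 239 members with a promoter entry, 57.7% held at least 10 CG in this window, with a median of 11. Among all table genes with an entry (9074) the share was 76.4%, with a median of 16, and among all 27025 promoters it was 38.2%, with a median of 6. Members with a KRAB match had a median of 9 CG, and 43.3% of them reached 10.

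The members with the largest differences between lines included epithelial and developmental regulators without a KRAB match. Zfp185, the LIM domain protein that associates with the actin cytoskeleton, was at 25.0 and 25.2 RPKM in BC44, 2.64 and 2.20 in HC11, against 0.209 and 0 in C57MG. The lines did not overlap, and every comparison was called (log2 difference 2.93 ± 0.13 (SE) for BC44 minus HC11, limma adjusted p = 3.92e-06, and 4.57 ± 0.13 for BC44 minus C57MG, adjusted p = 2.71e-07). The C57MG replicate 1 value is 0.833% of the BC44 mean, close to the 0.729% at which genes high in BC44 only stood in that library. Zfp750, a factor of epidermal differentiation, followed the same order, with 9.33 and 7.0 RPKM in BC44, 2.15 and 1.17 in HC11, while C57MG had 0.154 and 0.281. BC44 exceeded HC11 by 1.80 ± 0.20 on the log2 scale (limma adjusted p = 0.000311) and C57MG by 2.90 ± 0.20 (adjusted p = 8.31e-06). Zfp296, known from pluripotent cells, was at 10.8 and 10.7 RPKM in BC44, 7.11 and 8.85 in HC11, with 0.289 and 0.382 in C57MG. Its fall from HC11 to C57MG was 2.74 ± 0.12 (limma adjusted p = 1.13e-06). Of the KRAB genes, Zfp791 had this order too, at 5.52 and 5.42 RPKM in BC44, 1.83 and 1.67 in HC11, against 0.035 and 0 in C57MG (BC44 minus C57MG 2.67 ± 0.10, limma adjusted p = 3.79e-07). As shares of the BC44 mean, the C57MG values were 1.89% and 3.44% for Zfp750 and 2.69% and 3.56% for Zfp296. For Zfp791 they were 0.64% and 0%. Genes high in BC44 only stood at 0.729% and 0% in these libraries.

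The related corepressors Zfp703 and Zfp503 stood on opposite sides of C57MG, low there in 1 case and high in the other, and both were higher in HC11 than in BC44. Zfp703, whose human counterpart is amplified in luminal breast cancer, was at 24.9 and 25.8 RPKM in BC44, 35.1 and 38.7 in HC11, while C57MG had 7.27 and 6.63. It was higher in HC11 than in C57MG by 2.25 ± 0.09 (limma adjusted p = 7.31e-07). Zfp503, a developmental regulator of the striatum and limb, was at 0.081 and 0.299 RPKM in BC44, 2.67 and 2.85 in HC11, with 12.9 and 14.2 in C57MG. Each line was separate from the next (HC11 minus C57MG -1.95 ± 0.12, limma adjusted p = 6.45e-06, and BC44 minus C57MG -3.62 ± 0.12, adjusted p = 3.33e-07). Its BC44 values are 0.597% and 2.20% of the C57MG mean, close to the 0.666% and 2.02% at which genes high in C57MG only stood in those libraries. Other members varied in this share, with 1.51% and 1.89% for Zfp820 and 1.61% and 2.65% for Zfp600. Zfp182 stood at 1.12% and 0%, and Zfp449 at 0% and 1.63%. The part of such a signal in these values was not tested.

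Zfp395 also rose from BC44 over HC11 to C57MG, with 1.10 and 0.745 RPKM, 6.35 and 4.69, and 14.7 and 16.7 (HC11 minus C57MG -1.37 ± 0.16, limma adjusted p = 0.000165). The KRAB genes Zfp820, Zfp781 and Zfp951 were high in C57MG. Zfp820 stood at 4.42 and 5.41 RPKM there, 0.466 and 0.529 in HC11, and 0.074 and 0.093 in BC44. Zfp781, in which no finger was matched, was at 8.84 and 10.2 in C57MG, 2.15 and 2.19 in BC44, and 1.03 and 0.572 in HC11. For Zfp951 C57MG had 6.12 and 6.70, and the other 4 libraries 0.754 to 1.21. All 3 were called in both comparisons with C57MG (log2 differences from -2.55 to -1.73, limma adjusted p from 1.02e-06 to 2.36e-05). Zfp449, with 7 fingers, was at 0 and 0.046 RPKM in BC44, 0.648 and 0.653 in HC11, against 2.46 and 3.18 in C57MG. Its BC44 minus C57MG difference was -1.89 ± 0.11 (limma adjusted p = 4.40e-06). Like Zfp820, Zfp449 reached 1 RPKM only in C57MG, so both had to be high there and their p-values are no support. Between BC44 and HC11, Zfp317 differed most among KRAB genes with a high level, at 25.6 and 26.0 RPKM against 9.86 and 12.3 (1.16 ± 0.11, limma adjusted p = 0.000164). Zfp764, also a KRAB gene, was low in BC44 (0.082 and 0.046 RPKM) and at 1.25 and 1.45 in HC11 (-1.14 ± 0.10, limma adjusted p = 8.00e-05). It passed the filter only with the HC11 libraries, so its p-value is likewise no support. Zfp358 was highest in HC11, at 12.7 and 10.5 RPKM, with 6.47 and 4.62 in BC44 and 1.66 and 2.01 in C57MG (HC11 minus C57MG 2.15 ± 0.16, limma adjusted p = 1.76e-05).

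**Figure D2:**
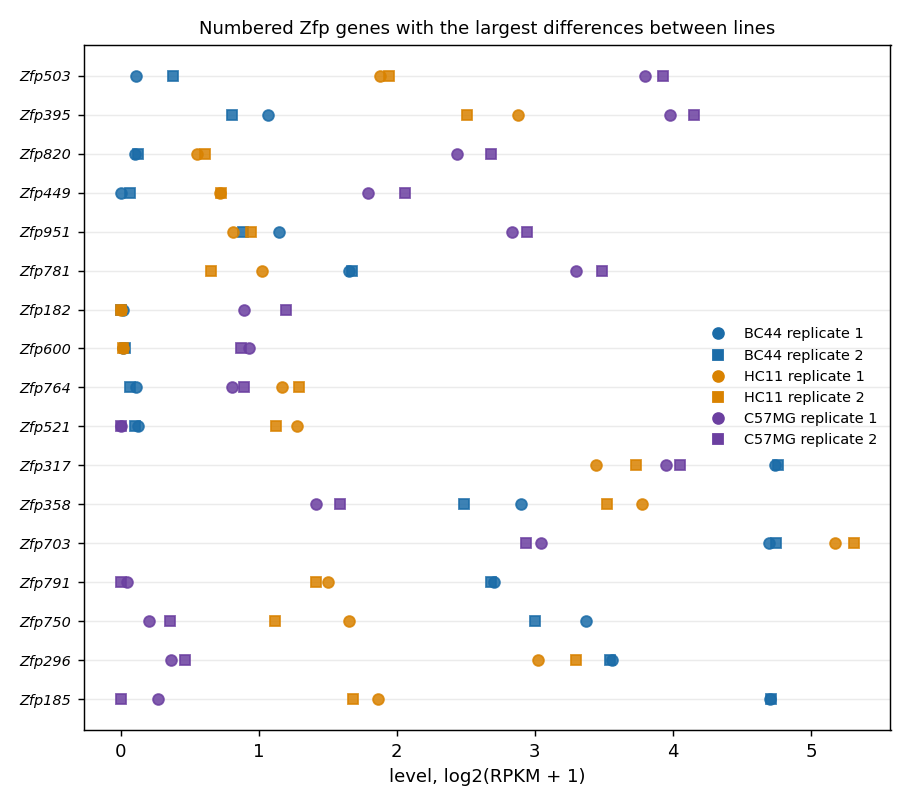
Level as log2(RPKM + 1) (horizontal axis) of the 17 members with the largest called difference in a comparison or present in 1 line only; each point is 1 library (circle replicate 1, square replicate 2; blue BC44, orange HC11, purple C57MG). Genes are ordered by C57MG minus BC44, from Zfp185 at the bottom (25.0 and 25.2 RPKM in BC44) to Zfp503 at the top (12.9 and 14.2 RPKM in C57MG).

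The 3 most abundant members of each line were, apart from Zfp445 in BC44, genes without a KRAB match. Zfp706, a small protein with 1 finger match, led in every line, at 73.0 and 84.0 RPKM in BC44, 49.0 and 49.4 in HC11, while C57MG had 79.4 and 75.9. HC11 was below both other lines (BC44 minus HC11 0.66 ± 0.09, limma adjusted p = 0.000725, and HC11 minus C57MG -0.65 ± 0.09, adjusted p = 0.000354). Zfp330 stood at 71.7 and 66.6 in BC44, 54.6 and 54.4 in HC11, with 20.5 and 19.4 in C57MG (HC11 minus C57MG 1.41 ± 0.08, limma adjusted p = 3.15e-06). Zfp598, a ubiquitin ligase that marks collided ribosomes, was at 37.5 to 41.0 RPKM in the BC44 and HC11 libraries and at 19.3 and 20.1 in C57MG (BC44 minus C57MG 0.94 ± 0.08, limma adjusted p = 2.93e-05). Zfp207, a spindle assembly protein that binds Bub3, was at 31.2 and 37.8 RPKM in BC44, 35.9 and 37.6 in HC11, against 35.8 and 40.0 in C57MG, and no comparison passed the test (log2 differences -0.14 to -0.04). Zfp740 was higher in C57MG, at 33.2 and 34.2 RPKM against 14.5 to 17.5 in the other 4 libraries (HC11 minus C57MG -1.01 ± 0.11, limma adjusted p = 0.000105). Among members of at least 5 RPKM in every library, Zfp62, Zfp512 and Zfp384 varied least. Zfp62 ranged from 7.86 to 8.86 RPKM over the 6 libraries, Zfp512 from 10.1 to 11.4 and Zfp384 from 7.33 to 8.68, which are ranges of 0.15, 0.16 and 0.22 on the log2 scale.

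A list of 44 members with a known role was named whatever their values, and 37 of them were in the table. Of the 36 tested, BC44 against HC11 called 16, of which 11 were higher in BC44. BC44 against C57MG called 21, with 16 higher in BC44, and HC11 against C57MG called 17, with 13 higher in HC11. These shares (44.4%, 58.3% and 47.2%) lie below those of all genes (47.7%, 71.7% and 70.5%). Among KRAB proteins with a known target, Zfp809, which silences murine leukaemia proviruses, was at 15.4 and 19.3 RPKM in BC44, 9.71 and 12.0 in HC11, while C57MG had 8.81 and 9.94. BC44 exceeded C57MG by 0.82 ± 0.14 (limma adjusted p = 0.00137). Zfp568, a repressor of the placental Igf2 promoter, was at 5.67 to 6.27 RPKM in the BC44 and HC11 libraries and at 3.44 and 3.32 in C57MG (HC11 minus C57MG 0.65 ± 0.10, limma adjusted p = 0.000691). Zfp445, which protects imprinted methylation, was abundant throughout, at 39.8 in both BC44 libraries, 24.4 and 27.7 in HC11, and 29.2 and 32.0 in C57MG. It was higher in BC44 than in HC11 (0.60 ± 0.09, limma adjusted p = 0.00151). The BC44 minus C57MG difference of Zfp445, 0.37 ± 0.09, was called (limma adjusted p = 0.00768) but not without C57MG replicate 1 (0.31, adjusted p = 0.0673). Zfp961 fell from BC44 over HC11 to C57MG, with 15.2 and 17.3 RPKM, 9.88 and 10.3, and 4.37 and 4.32 (HC11 minus C57MG 1.05 ± 0.10, limma adjusted p = 5.73e-05).

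Members of the known-role list without a KRAB match ranged from even to clearly different. Zfp827, linked to telomere chromatin, was at 5.29 and 4.33 RPKM in BC44, 3.60 and 3.79 in HC11, with 1.03 and 0.921 in C57MG (HC11 minus C57MG 1.25 ± 0.12, limma adjusted p = 5.13e-05). Zfp281, a GC-box factor of stem cells, was at 7.23 and 7.46 RPKM in BC44 and 10.3 and 11.9 in C57MG (-0.53 ± 0.10, limma adjusted p = 0.00225). Zfp148, another GC-box factor, was at 19.1 ± 1.40 RPKM (SD, n = 2) in BC44, with 12.2 and 12.7 in HC11 (0.58 ± 0.10, limma adjusted p = 0.00215). No comparison passed the test for Zfp143, a promoter factor also found at chromatin loops, at 7.20 to 9.09 RPKM over the 6 libraries. The same was found for Zfp217, whose human counterpart is amplified in breast cancer, at 4.88 to 6.32 RPKM. Its log2 differences were -0.06 to 0.04 with SE 0.14, so smaller differences in either direction are within the error. Zfp335, Zfp592, Zfp644, Zfp608, Zfp91 and Zfp830 also passed in no comparison.

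The KRAB match split the series by level and by the order of the line medians. The median over the 160 members with a match was 2.05 RPKM in both BC44 libraries, 1.86 and 1.93 in HC11, and 2.56 and 2.72 in C57MG. Over the 128 without a match it was 6.28 and 6.56 in BC44, 5.78 and 5.27 in HC11, against 4.73 and 4.64 in C57MG. C57MG was thus the highest line for the median KRAB gene and the lowest for the others, and in both classes its 2 libraries lay outside the range of the other 4. The summed level did not follow the median among KRAB genes: it was 667 and 686 RPKM in BC44, 535 and 580 in HC11, while C57MG had 550 and 593. Members with a match had a median of 12 fingers and the others 7.

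**Figure D3:**
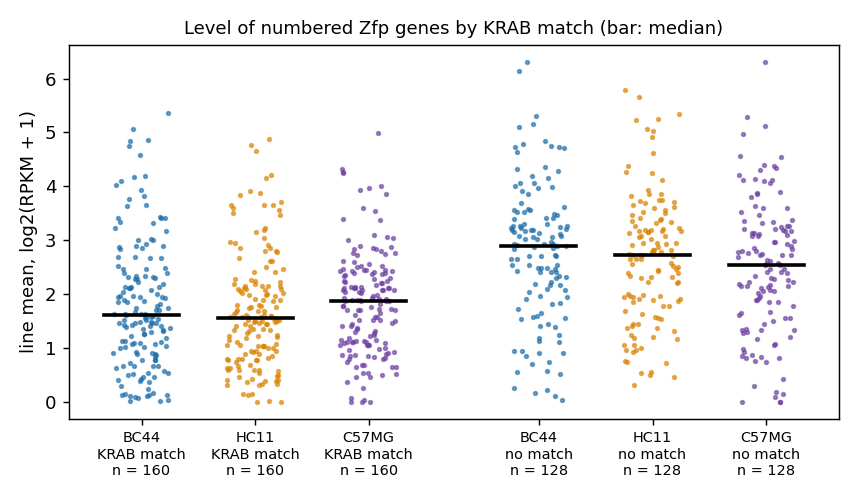
Mean of the 2 libraries of a line as log2(RPKM + 1) (vertical axis) for the 160 members with a KRAB match (left) and the 128 without (right), 1 point per gene, spread sideways at random; the black bar is the median. The bar is highest in C57MG on the left and lowest in C57MG on the right.

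Called differences were less one-sided and depended on level. Between HC11 and C57MG, 53 of 136 tested KRAB genes were higher in C57MG and 33 in HC11 (39.0% and 24.3%, where 33.2% and 37.4% of all genes were). Of 121 members without a match 25 were higher in C57MG and 45 in HC11 (20.7% and 37.2%, the latter near the share of all genes). Between BC44 and C57MG the KRAB genes divided 47 to 47 (34.6% each, against 37.5% of all genes higher in BC44 and 34.1% in C57MG). The others divided 53 to 23 in favour of BC44 (43.8% and 19.0%). Between BC44 and HC11, BC44 was the higher line in both classes, by 38 to 13 (27.9% and 9.56%) and 31 to 18 (25.6% and 14.9%). Of all genes 24.7% were higher in BC44 and 23.0% in HC11. The BC44 shares were thus near that of all genes, and the HC11 shares were lower. Of the tested KRAB genes 15 would not have passed the filter without the C57MG libraries, which favours members high there. Among the other 121, 39 were higher in C57MG and 33 in HC11, and against BC44 33 were higher in C57MG and 47 in BC44. The direction turned among the 34 KRAB genes whose mean reached 5 RPKM: 8 were higher in C57MG against 18 in HC11, and 4 in C57MG against 23 in BC44. This was not limited to KRAB genes. In the fit of genes with that mean, all 108 members divided 23 in C57MG against 46 in HC11, and 16 against 55 in BC44. With no filter on low values, so that all 160 KRAB genes entered, 64 were higher in C57MG and 38 in HC11. Without C57MG replicate 2, 123 KRAB genes were tested, 26 higher in C57MG and 25 in HC11, and 23 higher in C57MG against 40 in BC44. Without C57MG replicate 1 the numbers were 36 and 24, and 29 and 36. For these subsets no share of all genes by direction is given, and whether the 2 classes differ in direction was not tested.

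KRAB genes lie together on the chromosomes, so members were also read by neighbourhood, taking neighbours within 1 Mb of each other in the GRCm38 annotation. On chromosome 17 a run of 10 members from Zfp871 to Zfp414, 9 of them KRAB genes, was higher in C57MG. All 9 members tested there were higher in C57MG than in HC11 (median log2 difference HC11 minus C57MG -0.98) and 8 of 9 than in BC44 (median -0.74). Zfp763 and Zfp952 passed the filter only with the C57MG libraries, and without them the numbers were 7 of 7 and 6 of 7. Zfp871 was at 11.5 and 11.7 RPKM in BC44, 7.42 and 8.24 in HC11, with 16.8 and 19.3 in C57MG (HC11 minus C57MG -1.11 ± 0.10, limma adjusted p = 5.28e-05). Zfp763 was at 0.788 and 0.628, 0.378 and 0.373, and 3.11 and 2.99, and Zfp952 at 0.986 and 1.10, 0.814 and 0.959, and 2.98 and 3.74. Zfp414, the last of the run and without a KRAB match, was at 4.83 to 5.75 RPKM in the BC44 and HC11 libraries and at 11.2 and 11.5 in C57MG. The 3 other genes between them that were tested had medians of -0.99 and -1.08, so the pattern was not limited to Zfp genes. Leaving out any 1 library, all members still tested remained higher in C57MG than in HC11 (8 or 9 members), and 5 to 7 than in BC44.

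On chromosome 13 the 17 members from Zfp708 to Zfp273, all of them KRAB genes, were low in every line, and 11 were tested. None was called higher in BC44 or HC11 than in C57MG, and 7 and 6 were called higher in C57MG. The tested members had median log2 differences of -0.46 for BC44 minus C57MG and -0.35 for HC11 minus C57MG. The 5 other genes between them that were tested had -0.42 and -0.45, so the pattern was not limited to Zfp genes. Zfp429 was at 0.096 and 0.107 RPKM in BC44, 0.278 and 0.360 in HC11, against 1.45 and 1.82 in C57MG, and Zfp455 at 0.025 and 0.169, 0.258 and 0.206, and 1.20 and 1.46. These 2, Zfp493, Zfp759 and Zfp953 passed the filter only with the C57MG libraries, and among the 6 other tested members 3 were higher in C57MG than in BC44 and 2 than in HC11. Zfp953 also needed the BC44 libraries, with 1.02 and 0.993 RPKM there and 0.888 and 1.26 in C57MG. With no filter, 10 of the 17 were higher in C57MG than in BC44 and 9 than in HC11, with 1 in the other direction in each case. That 1 member was Zfp459, listed at 0 in C57MG while its neighbours were at their highest there. Without C57MG replicate 1 the members called higher in C57MG fell to 2 and 2 of 7 tested, and without C57MG replicate 2 to 2 and 0 of 6.

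Some other neighbourhoods were higher in BC44 than in at least 1 of the other lines. Of all genes 37.5% were higher in BC44 than in C57MG and 24.7% than in HC11. On chromosome 8 the 6 KRAB genes from Zfp930 to Zfp866 were all called higher in BC44 than in C57MG (median 0.73). Of these, 4 to 6 were called when 1 library was left out and 5 under quantile normalization or median-ratio scaling. Zfp964 passed the filter only with the BC44 libraries, and without it the number was 5 of 5. Zfp930 was at 26.7 and 29.6 RPKM in BC44, 27.3 and 29.2 in HC11, while C57MG had 12.5 and 14.4, and Zfp868 at 14.5 and 13.9, 10.8 and 13.2, and 3.02 and 3.41 (BC44 minus C57MG 1.85 ± 0.12, limma adjusted p = 6.04e-06). On chromosome 9, 5 of the 6 KRAB genes from Zfp317 to Zfp846 were called higher in BC44 than in HC11, and 1 lower. Of these, Zfp426 was not called in the fit of the 4 libraries compared (0.34, limma adjusted p = 0.0687). Its call was also lost in some fits that left out 1 library. Zfp266 was at 22.6 and 23.1 RPKM in BC44, 11.4 and 11.7 in HC11, with 6.99 and 7.66 in C57MG (BC44 minus HC11 0.92 ± 0.09, limma adjusted p = 0.000158). Zfp846, at the end of the same run, had the opposite order, at 0.550 and 0.881, 1.69 and 1.73, and 2.59 and 3.17 (BC44 minus HC11 -0.67 ± 0.13, limma adjusted p = 0.0047). On chromosome 6, 6 of 7 tested members from Zfp786 to Zfp775 were higher in BC44 than in C57MG and 1 lower, and 6 of 7 were higher in HC11 than in C57MG. Against HC11 none was higher in BC44 and 1 was lower, so that run was low in C57MG. The 1 lower member was Zfp775 in both cases. It passed the filter only with the C57MG libraries, and the other 6 were all higher in BC44 than in C57MG. In the fit of the 4 libraries compared, 6 of 7 were again higher in BC44 and 5 in HC11. The calls of Zfp212 and Zfp746 between BC44 and C57MG were lost in some fits that left out 1 library. Neighbours could also go opposite ways on chromosome 15, where Zfp7 was at 11.6 and 11.2 RPKM in BC44 and 4.60 and 4.36 in C57MG, and Zfp251 at 6.67 and 6.23 in BC44 and 14.5 and 14.8 in C57MG.

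**Figure D4:**
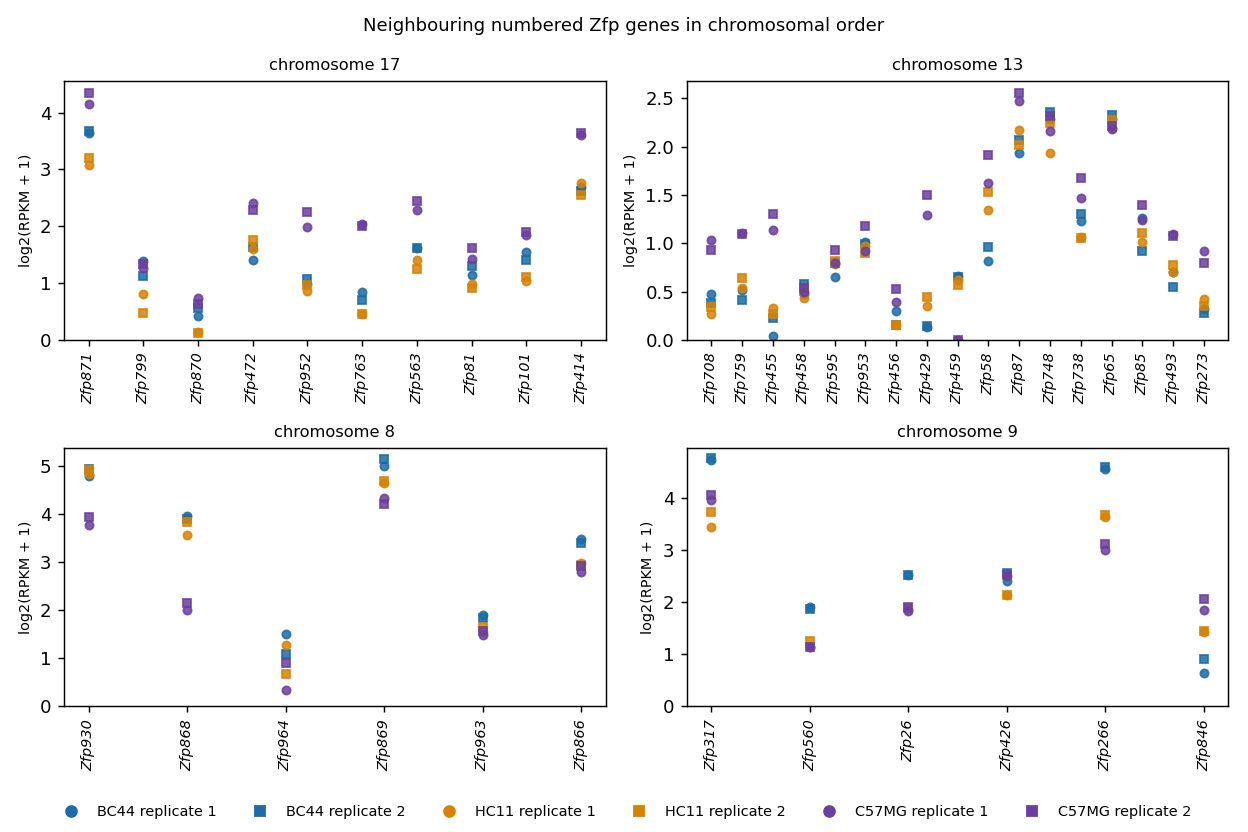
Level as log2(RPKM + 1) (vertical axis) of neighbouring members in chromosomal order (horizontal axis, not to scale) on chromosomes 17, 13, 8 and 9; each point is 1 library (circle replicate 1, square replicate 2; blue BC44, orange HC11, purple C57MG). C57MG is above the other lines along the chromosome 17 run except at Zfp799, and below BC44 along the chromosome 8 run.

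Over whole chromosomes, the median difference of the members often had the sign of that of the other genes. Among 13 chromosomes with at least 5 tested members the signs were the same on 9 for BC44 minus HC11 (opposite on 6, 8 and 11), on 11 for BC44 minus C57MG (opposite on 10) and on 9 for HC11 minus C57MG (opposite on 7, 11 and 13), with 1 median of 0 in each comparison. Of 19 members on chromosome 8, 18 were higher in BC44 than in C57MG and none lower (median 1.01), and 16 were higher in HC11 than in C57MG (median 0.54). The other genes of chromosome 8 had medians of 0.63 and 0.68, with 64.1% and 71.2% called higher in BC44 and in HC11. On chromosome 17, 18 of 34 tested members were higher in C57MG than in BC44 (median -0.38, other genes -0.13). Of these 34, 21 were higher in C57MG than in HC11 (median -0.48, other genes -0.21). Of the other genes of chromosome 17, 43.7% were called higher in C57MG than in BC44 and 45.7% than in HC11. Without C57MG replicate 2 the counts of members were 10 and 12 of 30 tested. On chromosome 9, 10 of 14 members were higher in BC44 than in HC11 (median 0.53), and the other genes had a median of 0.27 with 46.0% higher in BC44. On chromosome 15, 5 of 9 members were higher in C57MG than in BC44 and 2 lower, with the same numbers against HC11. Of its other genes 64.4% were higher in C57MG than in BC44 and 64.1% than in HC11. On chromosome 13 the members had a median of -0.29 for HC11 minus C57MG and the other genes 0.04. Within the run from Zfp708 to Zfp273, however, the 5 other genes tested had a median of -0.45. On chromosome 10, with 5 members, medians of members and other genes were -0.86 and -0.04 for HC11 minus C57MG. For BC44 minus C57MG they were -0.27 and 0.12. On chromosome 11 the members had a median of 0.20 for BC44 minus HC11 and the other genes -0.11. On chromosome 7, which holds 72 members, the medians of members and other genes were 0.10 and 0.09 for BC44 minus C57MG.

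**Figure D5:**
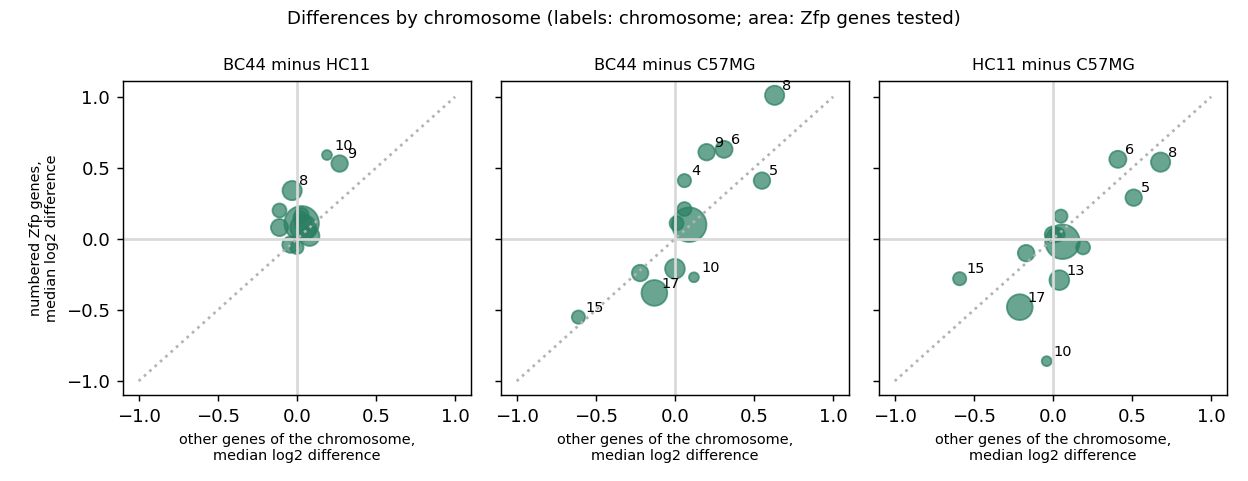
Median log2 difference of the tested members of a chromosome (vertical axis) against that of the other genes of the chromosome (horizontal axis) in each comparison, for chromosomes with at least 5 tested members; area grows with the number of members, the dotted line marks equal medians, and chromosomes beyond 0.25 on either axis are labelled. Chromosome 8 is at the upper right in both comparisons with C57MG (0.63 and 1.01, and 0.68 and 0.54). Chromosomes 15 and 17 are among those at the lower left, with chromosome 15 furthest left (-0.61 and -0.55, and -0.59 and -0.28).

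RNA of the proteins through which KRAB zinc fingers act was also measured. Of a list of 16 KAP1 partners, 15 were in the table and all were tested. These include Zfp445, itself a member with a KRAB match, which is counted among those called in both comparisons with BC44. Called were 4 between BC44 and HC11 (26.7%, against 47.7% of all genes), 13 between BC44 and C57MG (86.7%, against 71.7%) and 8 between HC11 and C57MG (53.3%, against 70.5%). Higher in BC44 than in C57MG were 9 and lower 4, of which 1 to 4 passed when 1 library was left out. Trim28, which is KAP1 itself, was at 84.2 and 88.1 RPKM in BC44, 84.4 and 90.2 in HC11, against 66.2 and 65.4 in C57MG (HC11 minus C57MG 0.40 ± 0.07, limma adjusted p = 0.00177). Setdb1, the histone methyltransferase of the complex, was at 12.4 and 12.0 RPKM in BC44, 13.6 and 17.1 in HC11, while C57MG had 15.2 and 16.6. Its BC44 minus C57MG difference of -0.36 ± 0.12 (limma adjusted p = 0.0298) was lost without either BC44 or either C57MG library (adjusted p 0.0544 to 0.151). The largest difference was in Chd3, a remodeller of the NuRD complex that KAP1 binds, at 29.3 and 28.6 RPKM in BC44, 28.0 and 21.5 in HC11, with 5.69 and 5.15 in C57MG (BC44 minus C57MG 2.23 ± 0.13, limma adjusted p = 3.60e-06). The remodeller Smarcad1 was at 15.6 to 20.4 RPKM in BC44 and HC11 and at 8.02 and 7.99 in C57MG. Uhrf1, which guides maintenance DNA methylation, was at 40.0 to 45.5 RPKM in BC44 and HC11 and at 80.4 and 76.9 in C57MG (BC44 minus C57MG -0.90 ± 0.08, limma adjusted p = 2.95e-05).

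Other zinc finger gene series are given for comparison, beside 47.7%, 71.7% and 70.5% of all genes called. Of 30 tested Zbtb genes, which carry a BTB domain before the fingers, 11 were called between BC44 and HC11, 18 between BC44 and C57MG and 12 between HC11 and C57MG (36.7%, 60.0% and 40.0%). Of 14 tested Zkscan and Zscan genes, which carry a SCAN domain, the numbers were 6, 7 and 8 (42.9%, 50% and 57.1%). All 6 shares lie below those of all genes, and the difference from the numbered Zfp genes was not tested. Values of near-identical gene copies and of overlapping genes are uncertain, since whether the counting used the strand is not given in the sources used here.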

How the data were processed

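The deposited values are RPKM computed by the authors, 1 per gene and library. Per the submitters' processing notes, STAR and the mm9 build were used, with no version given. Gene lengths and the read counter are not given in the sources used here. Depth was estimated from low values: with exon lengths of GENCODE M21 (GRCm38), 76.5% to 84.2% of 201 to 336 low values per library lay within 0.15 of a whole number of reads, against 30.0% by chance. Read numbers are therefore estimates.

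Lines were compared on the log2(RPKM + 1) scale by limma's trend method (version 3.58.1, R 4.3.3) over all 6 libraries, 2 per line, two-sided, for genes of at least 1 RPKM in at least 2 libraries. Fold changes on this scale understate the change of weakly expressed genes. All 11417 genes matched GENCODE M21, from which finger, KRAB and SCAN patterns were searched in translated coding sequences (Python 3.11.15, Biopython 1.88). Promoters are from RefSeq.

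The members and lists were chosen with earlier results of these data known. Named were the 4 called, non-overlapping members with the largest difference per comparison and direction, members present in 1 line only, the 3 highest per line, the 3 least variable, and the known-role list. Neighbourhood members, members absent from 1 line and KAP1 partners were named after their values were seen. Zfp57, Zfp42, Zfp423, Zfp131, Zfp536, Zfp92 and Zfp992 of the lists were not analysed here. Marker lists were epithelial, mesenchymal, immune, endothelial, adipocyte and neural.

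Alternatives were quantile normalization, a pseudocount of 0.1, no filter or a minimum mean of 5 RPKM, scaling by median ratios, a fit of the 4 libraries compared, the replicate number as a block, other presence limits, and leaving out each library.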

Additional observations from a re-analysis of the deposited data

How the results depend on the processing

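None of the 426 called differences of members changed sign in any alternative run that tested it. Of 92 called differences of named members, 63 passed in every alternative that gave a value. With a mean of at least 5 RPKM 108 members were tested, of which 52 were called in BC44 against HC11, 71 in BC44 against C57MG and 69 between HC11 and C57MG. Leaving out 1 library gave 62 to 90, 123 to 180 and 102 to 147 members. Without both BC44 replicate 2 and C57MG replicate 1, an alternative chosen after seeing the data, the counts were 39, 85 and 89 (16.1%, 35.1% and 36.8%, against 29.7%, 48.4% and 54.3% of all genes). These fits have fewer samples, and a lone library is assumed to vary like the other lines. Quantile normalization moved the HC11 against C57MG calls from 78 and 78 to 73 higher in HC11 and 86 in C57MG. The median difference of all genes moved by at most 0.045 (log2) from its reported value in any fit.

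The presence count for HC11 became 0 with an upper limit of 0.05 RPKM, and that for C57MG became 0 with a lower limit of 1 RPKM and 3 with an upper limit of 0.2 RPKM (Zfp605 was added). Median levels over the tested members were 4.02 (BC44), 3.42 (HC11) and 3.60 RPKM (C57MG), since that drops weak members. In single libraries they were 3.26 to 3.50, 2.83 to 2.99 and 3.13 to 3.38. With the replicate number as a block, 105, 174 and 162 members were called, of which 99, 169 and 156 were also called without it. Deviations of same-numbered libraries correlated at 0.354 between BC44 and HC11, and at -0.039 and 0.038 between these lines and C57MG. The labels tie the numbers to nothing shared, so they were not taken to pair the samples. Depth limits the reading of values under 3 reads.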

Other observations

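Among the marker lists not described above, the endothelial list (2 of 6 genes in the table) summed to 2.17 and 2.38 RPKM in the BC44 libraries, 0.851 and 1.58 in those of HC11, and 0.561 and 0.252 in C57MG. The 1 adipocyte marker in the table was at 4.14 and 8.77 RPKM in HC11, 1.72 and 1.35 in BC44, and 0.695 and 0.407 in C57MG. The 1 neural marker was at 48.6 and 69.6 RPKM in BC44, 19.1 and 27.6 in HC11, against 0.444 and 0.104 in C57MG.

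Zfp300, a KRAB gene on chromosome X like Zfp182, was at 0.270 and 0.304 RPKM in C57MG (an estimated 26 and 25 reads), 0 and 0.011 in BC44 and 0 in both HC11 libraries. It lay below the limit of 0.5 RPKM for a member present in 1 line only. Zfp53, a KRAB gene on chromosome 17, was highest in HC11, at 14.1 and 14.2 RPKM, with 6.85 and 7.13 in BC44, and 5.49 and 5.99 in C57MG (limma HC11 minus C57MG 1.17 ± 0.09, adjusted p = 2.34e-05). Of 19 tested members of its run, 3 were called higher in HC11 than in C57MG, Zfp53 among them. Another 10 were higher in C57MG and 6 were not called. Zfp939, annotated as a pseudogene, was at 0.788 to 1.39 RPKM in all 6 libraries.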
